A study of Mus musculus with 4 samples.

Results

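The genes of MHC class I antigen presentation and of the immunoproteasome were followed across the cell classes and time points of wire-injured mouse carotid arteries. The 10 genes were taken from a list of names and not from their values. They were H2-K1, H2-D1, B2m, Tap1, Tap2, Tapbp, Psmb8, Psmb9, Psmb10 and Nlrc5, out of 31053 genes listed and 20506 with at least 1 transcript, and all 10 were detected. The list itself was chosen with earlier results of these data known. In wire injury a wire is passed through the vessel and strips its inner lining. There was 1 single-cell RNA-sequencing library from before injury (day 0) and 1 each from days 3, 7 and 14 after it. Each was made from pooled carotid arteries of male C57BL/6 mice, 11 weeks old before injury and on no high-fat diet. Vessels with a thrombus were discarded, the tissue was digested with enzymes and dead cells were removed, so the libraries hold the cells that survived digestion, and no genotype or drug separated them.

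Transcripts were counted with unique molecular identifiers (UMIs), so that copies made by PCR from 1 captured transcript count once. Levels are given as CPM, the UMIs of a gene per 1000000 UMIs summed over all cells of a class in a library, with a 95% Poisson interval where one is shown. Such intervals cover counting error only, and not the difference between animals or between digestions, since each time point was 1 pooled library. The libraries held 333, 1689, 3001 and 1138 cell barcodes at days 0, 3, 7 and 14. After filtering, 281, 1405, 2693 and 1029 cells were kept, with a median of 5458 to 10764 UMIs. In all, 217 barcodes were shared between libraries, 152 of them by days 0 and 3 and 64 by days 7 and 14. In 214 of these the copy in 1 library was far shallower, and that copy was removed (48 at day 0, 104 at day 3 and 62 at day 14). Counts and shares that changed when both copies were removed are given with both values, in part in the closing section. Ratios of single genes between days are so given only for the heavy chains of fibroblast-like cells at day 3. Clusters were named from marker genes with the suffix "-like", without the 75 genes of the antigen presentation pathway among the genes that formed them. Another 777 cells (14.4%) stayed unnamed.

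MHC class I molecules display peptides from inside the cell on its surface, where CD8+ T cells inspect them and NK cells sense their loss. A heavy chain, encoded in this strain by H2-K1 and H2-D1, pairs with the light chain beta-2-microglobulin (B2m). The peptides are cut by the proteasome, pumped into the endoplasmic reticulum by the Tap1 and Tap2 transporter and loaded with the help of tapasin (Tapbp). Under interferon-gamma, the catalytic subunits Psmb5, Psmb6 and Psmb7 of the proteasome are replaced by Psmb8, Psmb9 and Psmb10, which gives the immunoproteasome. Nlrc5 is the transactivator that acts at class I promoters. Almost all nucleated cells carry class I, at levels that differ between tissues.

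The promoter sequences of the class I chains are shown first, and whether they bear on the levels that follow was not tested. They were read from RefSeq promoter windows of the mouse build GRCm38.p6, in which 8 of the 10 genes had an entry (Tap2 and Nlrc5 had none). Each is the 200 bases before the gene's start, written 5′ to 3′ on the gene's strand, and the capitals mark the letters of the motifs found. For H2-K1, which had 2 entries, 1 is shown; it lies on the minus strand at chr17:34000334-34000533, H2-D1 on the plus strand at chr17:35262894-35263093 and B2m on the plus strand at chr2:122147487-122147686.
H2-K1: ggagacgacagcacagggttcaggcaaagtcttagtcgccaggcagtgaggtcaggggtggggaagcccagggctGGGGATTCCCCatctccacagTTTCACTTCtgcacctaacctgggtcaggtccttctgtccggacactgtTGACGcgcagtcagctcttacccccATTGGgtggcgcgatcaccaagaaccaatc
H2-D1: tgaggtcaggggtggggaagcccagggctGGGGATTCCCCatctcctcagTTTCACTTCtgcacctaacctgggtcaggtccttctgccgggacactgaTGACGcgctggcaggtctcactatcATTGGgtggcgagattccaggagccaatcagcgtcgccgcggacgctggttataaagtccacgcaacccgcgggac
B2m: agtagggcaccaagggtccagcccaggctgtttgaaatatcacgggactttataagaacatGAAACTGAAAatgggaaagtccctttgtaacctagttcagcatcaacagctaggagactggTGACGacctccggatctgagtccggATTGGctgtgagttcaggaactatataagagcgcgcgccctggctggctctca

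TGACG and ATTGG, 20 bases apart, are letters of the X2 and Y boxes of class I promoters, and were present in H2-K1, H2-D1 and B2m. The pair was found in 30 of 32851 mouse promoter windows of 250 bases (0.09%), on either strand. The 11-base kappa B element, a site of the NF-kappa B family and the first capitals of both heavy chains above, was in H2-K1 and H2-D1 and in 10 windows in all (0.03%). Both heavy chains held TTTCACTTC, the reverse strand of GAANTGAAA, an interferon response element present in 1.5% of windows. B2m held GAAACTGAAA, a match to the interferon response element of wider spacing (GAAA, any 2 bases, GAAA), which was in 2.98% of windows. Psmb8 held 1 match to TTCNNNGAA, the STAT element, which 7.02% of windows held. The 5 motifs were picked with the sequences in view, the matches in a sequence did not overlap, and a match describes letters and not a bound site.

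Psmb9 on the minus strand and Tap1 on the plus strand start back to back. The 225 bases between their starts, at chr17:34187331-34187555 of the plus strand, are shown as well. Whether this stretch bears on their levels was not tested. None of the 5 motifs had a match in it, so that it has no capitals.
Psmb9-Tap1 stretch: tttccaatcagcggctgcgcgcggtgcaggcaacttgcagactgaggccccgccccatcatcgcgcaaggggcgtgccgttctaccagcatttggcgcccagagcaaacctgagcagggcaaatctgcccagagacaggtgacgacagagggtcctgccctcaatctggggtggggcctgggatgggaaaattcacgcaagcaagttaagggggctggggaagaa

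To compare the classes, class I heavy chain levels were read first. H2-K1 (ENSMUSG00000061232) was lowest in smooth muscle-like cells, at 133.5, 225.0 and 180.5 CPM on days 3, 7 and 14, and next lowest in fibroblast-like cells, at 386.6, 229.7, 501.7 and 389.8 CPM on days 0, 3, 7 and 14. Monocyte/macrophage-like cells had 1017.6, 1344.9 and 1345.8 CPM on days 3, 7 and 14, and dendritic-like cells 1131.5, 1396.0 and 1413.0 CPM. T cell-like cells reached 2610.8, 2621.2 and 2532.2 CPM and NK cell-like cells 3352.9, 3591.9 and 3008.9 CPM. The levels of T cell-like and NK cell-like cells lay above all those of monocyte/macrophage-like and dendritic-like cells. These in turn lay above all those of fibroblast-like and smooth muscle-like cells. Monocyte/macrophage-like and dendritic-like cells overlapped each other. The few B cell-like cells (10, 13 and 21) had 1276.8, 1469.0 and 880.7 CPM on days 3, 7 and 14, below the other lymphoid classes. Neutrophil-like cells, present at days 3 and 7 only, had 617.7 and 855.0 CPM, between the fibroblast-like and monocyte/macrophage-like levels. Endothelial-like cells had 1258.6, 1962.1 and 2474.8 CPM at days 3, 7 and 14, within the range of the immune classes. The day 14 sum, of 19 cells, held 6208 CPM of 15 monocyte/macrophage markers against 5878 CPM of 10 endothelial markers. The part of the former in its H2-K1 level was not tested. The day 3 place of endothelial-like cells depended on the weighting of cells, since the mean over cells was 387.3 CPM, with an H2-K1 UMI in 22.5% of the cells. Fibroblast-like cells had 347.6 CPM and monocyte/macrophage-like cells 1049.9 CPM by that mean.

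H2-D1 (ENSMUSG00000073411) gave a similar order with a closer spacing of the immune classes. It was at 158.3, 259.5 and 303.1 CPM in smooth muscle-like cells on days 3, 7 and 14, and at 783.3, 311.2, 789.7 and 735.8 CPM in fibroblast-like cells on days 0 to 14. Monocyte/macrophage-like cells had 1747.3, 2178.7 and 2421.0 CPM, and T cell-like cells 2258.1, 2292.7 and 2862.2 CPM. Unlike H2-K1, this chain overlapped between the myeloid and T cell-like libraries. In neutrophil-like cells H2-D1 stood at 2460.5 and 2049.9 CPM where H2-K1 stood at 617.7 and 855.0, whereas in T cell-like cells of days 3 and 7 H2-K1 was the higher count. H2-K1, H2-D1 and the H2-Q genes share long stretches of sequence, and reads that fit several of them may be split or dropped in counting, so the level of each single chain is uncertain.

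B2m (ENSMUSG00000060802), the light chain shared by all class I molecules, was at 291.5, 533.5 and 446.9 CPM in smooth muscle-like cells on days 3, 7 and 14. Fibroblast-like cells had 566.0, 481.8, 1052.1 and 732.4 CPM on days 0, 3, 7 and 14. Monocyte/macrophage-like cells had 2573.7, 2627.7 and 2415.3 CPM, NK cell-like cells 2505.6, 2732.1 and 2341.8 CPM and T cell-like cells 2330.2, 2399.5 and 2225.3 CPM. These 3 immune classes had close levels of the light chain, although their H2-K1 levels differed. Dendritic-like cells, at 1478.6, 2057.7 and 1734.9 CPM, lay below them.

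**Figure D1:**
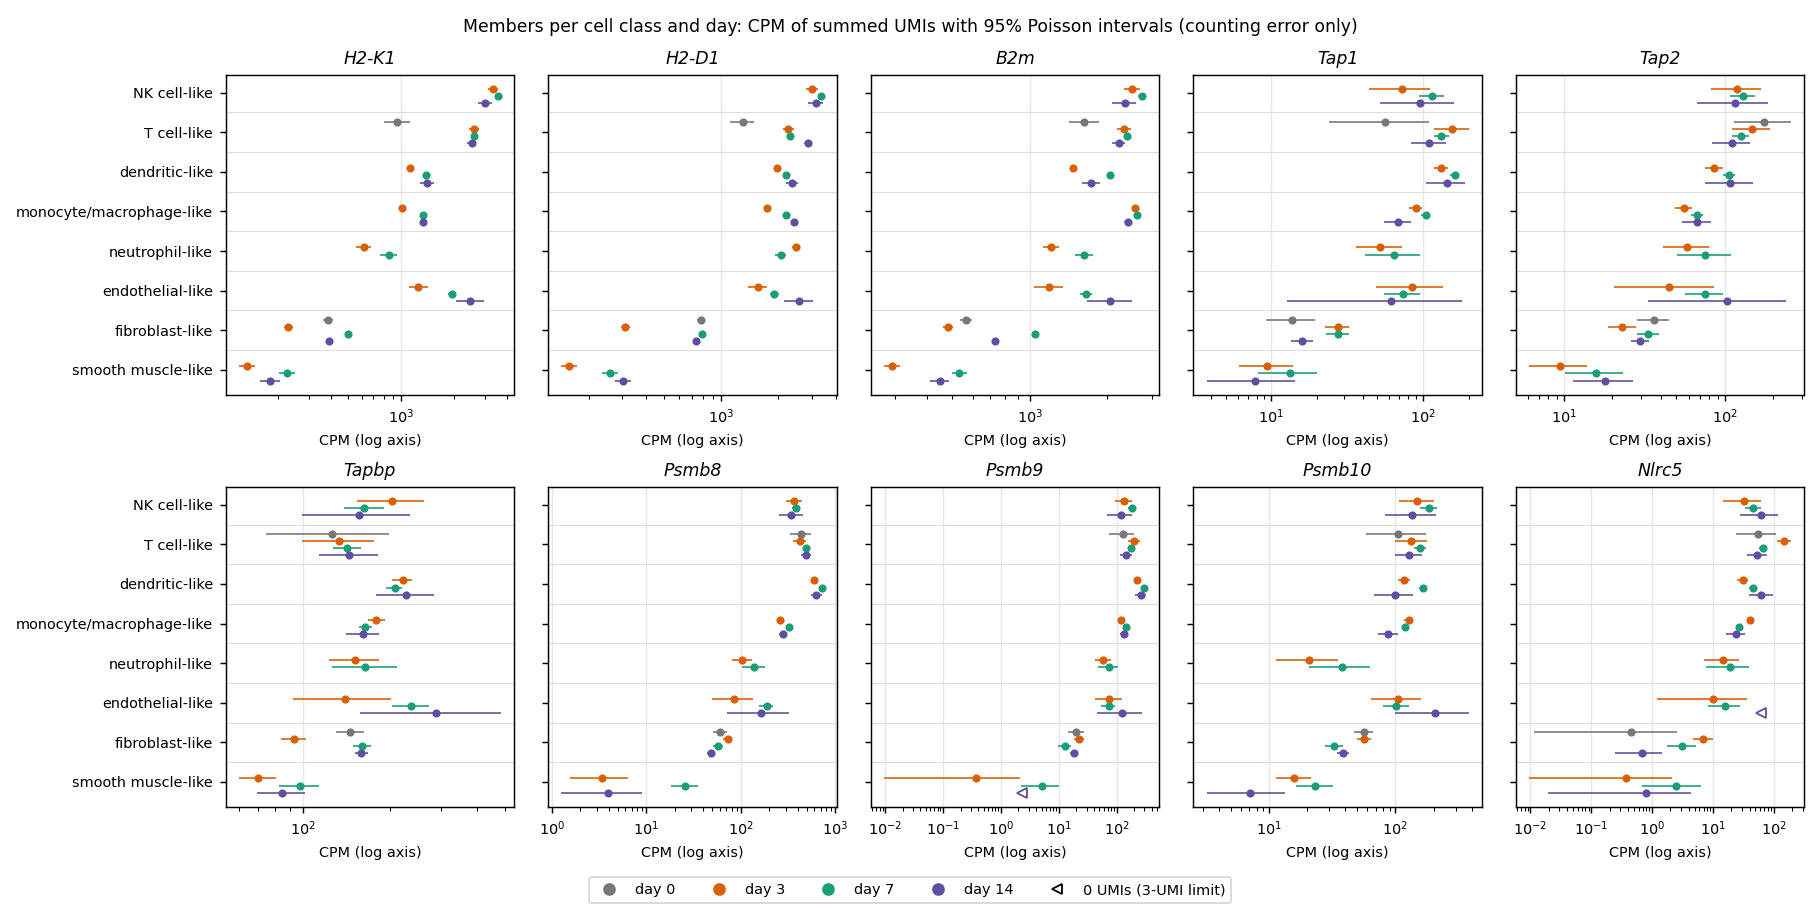
Levels of the 10 genes by cell class (vertical axis) and day (colour), as CPM on a log axis, for classes with at least 15 cells in a library. Points are summed UMIs of 1 library with 95% Poisson intervals, and open triangles mark 0 UMIs at the 3-UMI limit. H2-K1 runs from 133.5 CPM in smooth muscle-like cells of day 3 to 3591.9 CPM in NK cell-like cells of day 7.

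Peptide transport followed the same division. Tap1 (ENSMUSG00000037321), a subunit of the peptide transporter, was at 9.40, 13.2 and 7.81 CPM in smooth muscle-like cells on days 3, 7 and 14 and at 13.7, 27.4, 27.5 and 15.9 CPM in fibroblast-like cells on days 0 to 14. Dendritic-like cells had 131.3, 161.6 and 143.1 CPM, and T cell-like cells 155.0, 132.0 and 110.0 CPM. Monocyte/macrophage-like cells lay lower, at 89.5, 104.2 and 68.0 CPM. In endothelial-like cells the values of 84.6, 73.5 and 61.9 CPM rested on 17, 55 and 3 UMIs. These levels of the 3 immune classes exceeded every fibroblast-like and smooth muscle-like level. The endothelial-like sums did so too, but the interval of day 14 (12.8 to 180.8 CPM) held fibroblast-like levels. As a mean over cells, endothelial-like Tap1 was at 10.4, 85.8 and 19.7 CPM on days 3, 7 and 14, against 25.05 and 30.5 CPM in fibroblast-like cells of days 3 and 7.

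Tap2 (ENSMUSG00000024339), the partner subunit, ranged from 9.40 to 18.0 CPM in smooth muscle-like cells after injury, from 22.9 to 36.1 CPM in fibroblast-like cells and from 55.3 to 67.1 CPM in monocyte/macrophage-like cells. T cell-like cells had 147.0, 125.0 and 110.0 CPM and NK cell-like cells 119.5, 129.8 and 115.7 CPM. Tapbp (ENSMUSG00000024308), which bridges the transporter and empty class I, varied far less. It was at 69.6, 97.4 and 84.4 CPM in smooth muscle-like cells, at 145.2, 92.7, 160.6 and 159.0 CPM in fibroblast-like cells and at 133.6, 142.2 and 144.8 CPM in T cell-like cells of days 3, 7 and 14. Fibroblast-like and T cell-like levels of Tapbp overlapped, which was the case for none of Tap1, Tap2, H2-K1 and B2m.

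Of the immunoproteasome, Psmb8 (ENSMUSG00000024338), which takes the place of Psmb5, was close to absent from smooth muscle-like cells at days 3 and 14. There it had 9 UMIs (3.39 CPM, interval 1.55 to 6.43) and 5 UMIs (3.91 CPM, interval 1.27 to 9.12), and at day 7 it had 41 UMIs (25.8 CPM, interval 18.5 to 35.0). Fibroblast-like cells had 60.7, 72.3, 57.3 and 48.6 CPM on days 0, 3, 7 and 14. Dendritic-like cells had 599.5, 722.7 and 629.0 CPM, above monocyte/macrophage-like cells at 261.9, 322.5 and 281.2 CPM and T cell-like cells at 419.5, 485.3 and 488.3 CPM. The 3 dendritic-like libraries thus had the highest Psmb8 of the classes with at least 20 cells in every library after injury, which did not hold for H2-K1. Neutrophil-like cells stood lower, at 102.5 and 137.6 CPM.

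Psmb9 (ENSMUSG00000096727), which takes the place of Psmb6, was at 0.376 and 5.03 CPM in smooth muscle-like cells of days 3 and 7. At day 14 no UMI was found there, which allows up to 2.34 CPM. It ranged from 12.6 to 22.5 CPM in fibroblast-like cells, from 118.6 to 143.3 CPM in monocyte/macrophage-like cells and from 221.1 to 294.3 CPM in dendritic-like cells. Psmb10 (ENSMUSG00000031897), the third inducible subunit, ranged from 7.03 to 23.3 CPM in smooth muscle-like cells after injury, from 33.0 to 56.1 CPM in fibroblast-like cells and from 136.1 to 182.8 CPM in NK cell-like cells. Neutrophil-like cells had only 20.8 and 37.8 CPM of Psmb10, within the range of the fibroblast-like and smooth muscle-like cells, although their Psmb8 and Psmb9 were above it.

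Nlrc5 (ENSMUSG00000074151), the transactivator, had few UMIs. T cell-like cells of day 3 held the highest level, 149.6 CPM (interval 113.0 to 194.3). Monocyte/macrophage-like cells had 41.4, 27.3 and 24.1 CPM and dendritic-like cells 31.0, 44.9 and 62.6 CPM. Levels in fibroblast-like cells were 0.457, 6.95, 3.15 and 0.678 CPM on days 0 to 14, and in smooth muscle-like cells 0.376, 2.51 and 0.781 CPM after injury. Thus even the highest level in these cells of the wall was below the lowest of the neutrophil-like cells, 14.9 CPM.

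To test the class differences, UMIs were summed per class and library and compared with edgeR's quasi-likelihood test over days 3, 7 and 14, with the library as a block. The 18 sums covered fibroblast-like, smooth muscle-like, monocyte/macrophage-like, dendritic-like, T cell-like and NK cell-like cells, each with at least 20 cells per library. P-values were adjusted by Benjamini-Hochberg over all genes tested. They are set against the spread left after class and library are fitted, with the same estimate for all classes. The 3 pooled libraries were of different days, and the spread between animals is not measured. Between the average of the 4 immune classes and that of the 2 non-immune classes, 29.3% of 12150 genes were higher and 39% lower at an adjusted p under 0.05, so that a call by itself is common here. All 10 of the genes were higher in the immune classes, with a median log2 difference of 2.68 against -0.10 over all genes.

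By role, the class I chains differed by log2 2.82 ± 0.14 for H2-K1 (SE, adjusted p = 2.78e-12), 2.61 ± 0.16 for H2-D1 (adjusted p = 4.48e-11) and 1.92 ± 0.14 for B2m (adjusted p = 4.47e-10). The transporter subunits differed by 2.75 ± 0.14 for Tap1 (adjusted p = 3.56e-12) and 2.20 ± 0.13 for Tap2 (adjusted p = 2.74e-11), but tapasin by only 0.59 ± 0.12 (adjusted p = 2.81e-04). The immunoproteasome subunits differed by 3.99 ± 0.26 for Psmb8 (adjusted p = 1.29e-10), 4.82 ± 0.28 for Psmb9 (adjusted p = 2.23e-11) and 2.25 ± 0.17 for Psmb10 (adjusted p = 1.16e-09). Nlrc5 differed by 4.54 ± 0.40 (adjusted p = 8.05e-09). The catalytic subunits they replace went the other way or stayed near 0, at -0.26 ± 0.10 for Psmb5 (adjusted p = 3.15e-02), -0.26 ± 0.11 for Psmb6 (adjusted p = 4.31e-02) and 0.06 ± 0.12 for Psmb7 (adjusted p = 7.17e-01). The 15 monocyte/macrophage markers summed to 117.8 to 433.4 CPM in fibroblast-like cells and to 30.5 to 108.7 CPM in smooth muscle-like cells after injury, against 22430 to 25940 CPM in monocyte/macrophage-like cells. Each of the 10 directions and calls held in every alternative fit, including DESeq2, both treatments of shared barcodes and the loss of any 1 library. The classes averaged were not the same in all of them. With separate clustering or shallow copies kept the fit held 21 sums, with endothelial-like cells on the non-immune side. Without day 14 it held 16, with neutrophil-like cells added on the immune side as well.

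**Figure D2:**
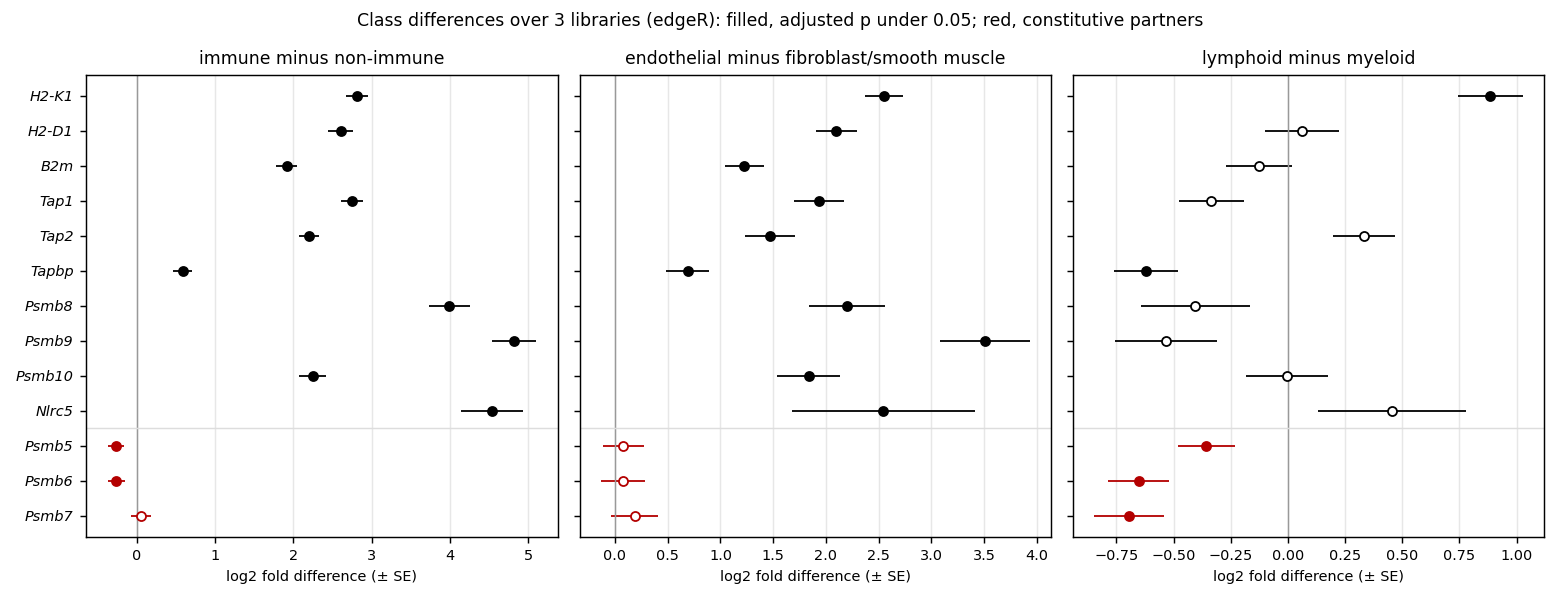
Log2 difference (± SE) of the 10 genes (black) and of the constitutive subunits Psmb5, Psmb6 and Psmb7 (red) in 3 class contrasts over the libraries of days 3, 7 and 14. Filled points have an adjusted p under 0.05 in edgeR. All 10 genes lie to the right of 0 in the immune and endothelial-like contrasts, whereas in the lymphoid contrast H2-K1 and Tapbp are the only filled black points.

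Endothelial cells line the vessel and are the first wall cells that circulating lymphocytes meet. Endothelial-like cells were compared with the average of fibroblast-like and smooth muscle-like cells, in a fit that held them as well (21 sums). They were few, at 40, 55 and 19 cells on days 3, 7 and 14, and shallow, with median UMI counts of 1112.5, 1706 and 876. The minimum was therefore set at 15 cells after the counts were seen. All 10 genes were higher in endothelial-like cells, with a median log2 difference of 2.02 against -0.08 over 11764 genes, of which 10.7% were higher and 12% lower.

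H2-K1 was higher by log2 2.55 ± 0.18 (adjusted p = 1.61e-09), H2-D1 by 2.097 ± 0.193 (adjusted p = 7.36e-08) and B2m by 1.23 ± 0.18 (adjusted p = 3.70e-05). Tap1 was higher by 1.94 ± 0.24 (adjusted p = 2.97e-06) and Tap2 by 1.47 ± 0.24 (adjusted p = 8.72e-05). Psmb8 was higher by 2.20 ± 0.36 (adjusted p = 1.01e-04), Psmb9 by 3.51 ± 0.43 (adjusted p = 2.92e-06) and Psmb10 by 1.84 ± 0.30 (adjusted p = 9.46e-05), whereas Psmb5, Psmb6 and Psmb7 differed by 0.08 to 0.19 (adjusted p = 6.23e-01 to 8.59e-01). The calls of Tapbp (0.69 ± 0.21, adjusted p = 2.04e-02) and Nlrc5 (2.54 ± 0.87, adjusted p = 3.81e-02) were fragile. Without day 7 they had an adjusted p of 3.06e-01 and 6.02e-01, and Tap2 then had 7.92e-02. Tapbp also missed the threshold without day 3 (adjusted p = 5.87e-02) or day 14 (adjusted p = 1.12e-01), and Nlrc5 with both copies of shared barcodes removed (adjusted p = 3.98e-01). Other alternatives that ended these 2 calls are given in the closing section.

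Markers of other cell types were read in the same endothelial-like sums. The 15 monocyte/macrophage markers summed to 174.1, 183.0 and 6208 CPM at days 3, 7 and 14 with 10, 14 and 11 of them detected, against 22430 to 25940 CPM in monocyte/macrophage-like cells. The 13 T cell markers summed to 0, 10.7 and 144.4 CPM. All 10 endothelial markers were detected on each day, at 3746, 5060 and 5878 CPM in sum. The part of these cells in the day 14 values was not tested. Without the day 14 library Tapbp lost its call (edgeR adjusted p = 1.12e-01), and the other genes kept theirs.

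Between the lymphoid (T cell-like and NK cell-like) and myeloid (monocyte/macrophage-like and dendritic-like) classes, 17.7% of the 12150 genes were higher and 25.2% lower. Among the 10 genes, H2-K1 was the one higher in lymphoid cells, by log2 0.89 ± 0.14 (adjusted p = 5.23e-05), and Tapbp the one lower, at log2 -0.62 ± 0.14 (adjusted p = 1.46e-03). H2-D1 and B2m differed by 0.06 and -0.13 (adjusted p = 8.10e-01 and 5.21e-01). Their median of -0.07 equalled that of all genes to 2 decimals. Tap1 (-0.34, adjusted p = 6.57e-02), Tap2 (0.33, adjusted p = 5.47e-02) and Psmb9 (-0.53, adjusted p = 6.42e-02) lay just outside the threshold and crossed it in some alternatives. Psmb5, Psmb6 and Psmb7 were all lower in lymphoid cells (log2 -0.36, -0.65 and -0.69, with adjusted p = 2.76e-02, 6.31e-04 and 1.11e-03). Psmb8 stood at -0.41 ± 0.24 (adjusted p = 1.87e-01) and Psmb10 at -0.004 ± 0.178 (adjusted p = 1.00). Psmb8 was called lower with no filter on low counts (-0.47, adjusted p = 3.73e-02) and without the 10% of cells with the most UMIs (-0.51, adjusted p = 3.07e-02). The difference between inducible and constitutive subunits was not tested.

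The balance of inducible and constitutive catalytic subunits was then given as the immunoproteasome share, the UMIs of Psmb8, Psmb9 and Psmb10 as a percentage of these plus those of Psmb5, Psmb6 and Psmb7. It is a share of captured 3′ ends and not of assembled proteasomes, and is meant for comparing classes. It was 4.05% (Clopper-Pearson 95% interval 3.04 to 5.28), 12.3% (9.93 to 14.9) and 2.54% (1.39 to 4.22) in smooth muscle-like cells on days 3, 7 and 14. Fibroblast-like cells had 25.04%, 25.9%, 20.2% and 24.3% on days 0, 3, 7 and 14, so that the share was present before injury. With both copies of shared barcodes removed, they had 33.1% on day 3 and 24.5% on day 7. Monocyte/macrophage-like cells had 56.3%, 59.2% and 58.6%, dendritic-like cells 66.2%, 71.4% and 69.8% and T cell-like cells 69.6%, 70.3% and 69.9% after injury. The intervals of days 3 and 7 did not overlap in monocyte/macrophage-like cells (54.8 to 57.8 and 58.1 to 60.2) or in dendritic-like cells (64.7 to 67.7 and 70.4 to 72.4). With each library clustered on its own, the monocyte/macrophage-like share of day 7 was 57.3%, inside that day 3 interval. A Plac8-led cluster held 68 of the 510 cells of this class at day 3 and 368 of 911 at day 7. Its part in the share was not tested. The shares of these 3 immune classes after injury lay above every share of the fibroblast-like and smooth muscle-like cells. NK cell-like cells had 60.1%, 66.5% and 63.5%.

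In endothelial-like cells the share was 28.5% (interval 22.1 to 35.6) at day 3, 40.8% (37.0 to 44.6) at day 7 and 58.5% (42.1 to 73.7) at day 14, the last from 24 and 17 UMIs. The intervals of days 3 and 7 did not overlap. Between these days dendritic markers in the sums went from 54.7 to 160.3 CPM and fibroblast markers from 631.8 to 1569 CPM, and their part in the day 7 values of these cells was not tested. The 15 monocyte/macrophage markers stood at 6208 CPM in the day 14 sum, above its endothelial markers at 5878 CPM, against 174.1 and 183.0 CPM on days 3 and 7. Their part in the day 14 share was not tested. In smooth muscle-like cells the day 7 interval overlapped neither of the other 2 days. That sum also held more fibroblast markers, at 13920 CPM against 6161 at day 3 and 6955 at day 14, and more of the 13 T cell markers, at 18.9 CPM against 2.26 and 2.34. Monocyte/macrophage markers stood at 108.7 CPM against 45.9 and 30.5, and the 12 dendritic markers at 39.6 CPM against 16.6 and 9.38. Their part in the day 7 share was not tested. T cell-like cells of day 0, 18 cells, had 56.5% (48.7 to 64.2).

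**Figure D3:**
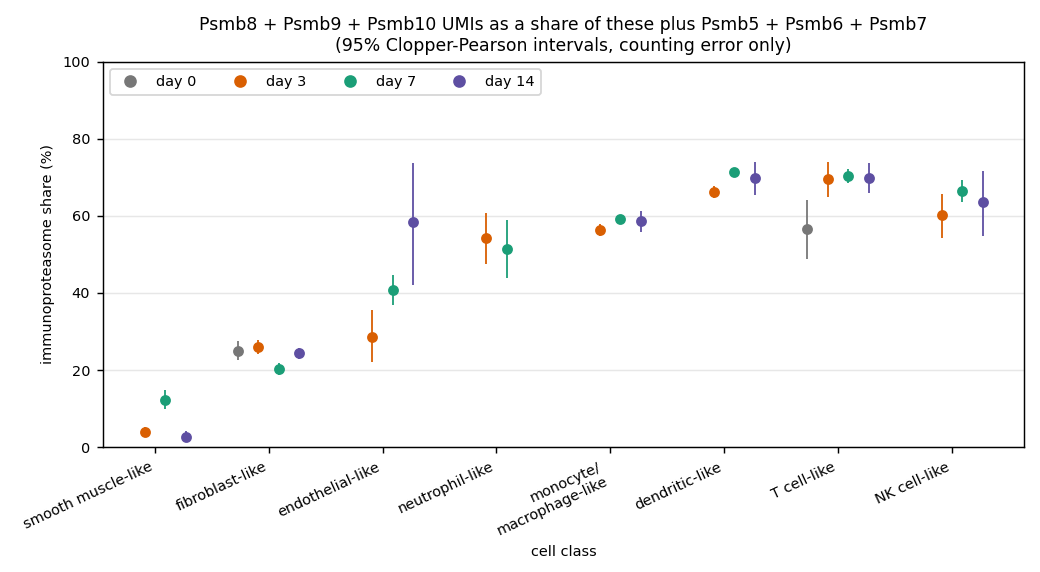
Immunoproteasome share in percent (vertical axis) by cell class and day (colour), with 95% Clopper-Pearson intervals that cover counting error only. Smooth muscle-like cells lie between 2.54% and 12.3% after injury, fibroblast-like cells between 20.2% and 25.9%, and T cell-like cells between 69.6% and 70.3% after injury.

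To follow the time course within a class, sums of different days were compared as the log2 ratio of CPM with 10 CPM added to each. Since each day was 1 library, no test between days was possible, and a gene was counted as changed when it differed at least 2-fold. Ratios were formed for genes with a mean of at least 20 CPM and at least 20 UMIs in the 2 sums, in classes with at least 20 cells, and for smooth muscle-like cells of day 0 (7 cells) and endothelial-like cells of day 14 (19 cells) as a description. In 17 planned comparisons, 4 to 10 genes met these limits, and at most 1 of them passed the 2-fold line in either direction. Of all genes, 1.04% to 11.3% were at least 2-fold higher and 0.985% to 32.5% lower. Other settings gave up to 6 genes in endothelial-like and up to 3 in smooth muscle-like cells, as given below.

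In fibroblast-like cells none of the genes was at least 2-fold higher than at day 0 at days 3, 7 or 14 (of 9, 8 and 7 that met the limits), where 4.5%, 4.61% and 3.1% of all genes were. At day 7, 1 of 8 was without the 10% of cells with the most UMIs, and 1 of 9 with both copies of shared barcodes removed. At day 3 the heavy chains were lower. H2-D1 went from 783.3 to 311.2 CPM, a ratio of 0.397 (exact interval 0.370 to 0.427) and a log2 ratio of -1.30, in a comparison where 5.91% of genes were at least 2-fold lower. H2-K1 had a ratio of 0.594 (0.541 to 0.652). At day 7 the ratios were 1.01 for H2-D1 and 1.30 for H2-K1, and B2m stood at 1.86 (1.75 to 1.98) times its day 0 level. Tap1, at 30 UMIs before injury, had ratios of 2.00 (1.33 to 3.09) and 2.01 (1.34 to 3.09) at days 3 and 7 but log2 ratios of 0.66 in both with the added 10 CPM. Psmb10 had ratios of 0.587 (0.461 to 0.749) at day 7 and 0.688 (0.559 to 0.853) at day 14, while Psmb8 stayed between 0.801 and 1.19. Fibroblast-like cells of different days fell partly in different clusters, and the part of this in the ratios was not tested.

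Part of the day 3 cells had very high UMI counts. A cluster led by Saa3, an acute-phase gene, held 43 of the 102 fibroblast-like cells of day 3 but 63.3% of their UMIs, with a median of 63138 UMIs per cell. It had 229.3 CPM of H2-D1 (interval 211.7 to 248.0), against 506.8 CPM (468.2 to 547.7) in the 53 cells of the main other cluster; both were below the day 0 level of 783.3 CPM. With both copies of shared barcodes removed, the log2 ratio of H2-D1 was -0.65 in place of -1.30 and that of H2-K1 -0.18 in place of -0.73, so that H2-D1 no longer passed the 2-fold line. As a mean over cells, which gives each cell the same weight, H2-D1 had a log2 ratio of -0.78 and H2-K1 of -0.10.

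In smooth muscle-like cells 4 of the genes met the limits. Against the 7 cells of day 0, H2-D1 was at least 2-fold higher at days 7 and 14 (log2 ratios 1.23 and 1.45, from 10 UMIs at day 0) and none at day 3, where 11.1%, 6.69% and 10.5% of all genes were. The counts depended on the processing: at day 7, 3 genes passed with median-of-ratios scaling and 2 with doublets kept, and at day 3, 1 passed with both copies of shared barcodes removed or without the 10% of cells with the most UMIs. Against day 3, an added comparison, none was at least 2-fold higher at day 7 or 14, where 1.78% and 2.55% of all genes were. B2m went from 291.5 to 533.5 CPM between days 3 and 7 without passing that line. Psmb8, below the limit on mean CPM, went from 3.38 to 25.8 CPM between these days (9 and 41 UMIs), a ratio of 7.61 (interval 3.64 to 17.8). As a mean over cells it went from 3.33 to 12.9 CPM. The fibroblast, T cell, monocyte/macrophage and dendritic markers given above were also higher in the day 7 sum, and their part in this ratio was not tested.

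In endothelial-like cells Psmb8 went from 84.6 CPM on day 3 to 187.0 CPM on day 7, a ratio of 2.21 (1.33 to 3.90) and a log2 ratio of 1.06. It was the 1 of 9 genes at least 2-fold higher, where 9.93% of all genes were, in sums whose dendritic and fibroblast markers also differed, as given above. At day 14 it was Tapbp, at a log2 ratio of 1.00, 1 of 8 where 11.3% of all genes were. H2-K1 went from 1258.6 to 1962.1 CPM by day 7. The day 3 sum rested on few cells. At day 3, 22.5% of the 40 cells had an H2-K1 UMI, and at day 7, 81.8% of the 55 cells. Thinned to 1000 UMIs per cell, which left 24 and 36 cells, the shares were 25% and 77.8%. Smooth muscle-like cells thinned in the same way had 7.35% and 16.7%. As a mean over cells, H2-K1 went from 387.3 to 1898.2 CPM, a log2 ratio of 2.26, and 6 of the genes were then at least 2-fold higher. With both copies of shared barcodes removed 5 were, and without the 10% of cells with the most UMIs 6 were. With at least 500 genes and at most 10% mitochondrial UMIs per cell none was. At day 14, 4 of 7 were as a mean over cells and 3 of 5 with both copies of shared barcodes removed. With the stricter filter 2 of 8 were, and without the deepest cells 2 of 3. None was at day 14 with median-of-ratios scaling, with each library clustered on its own or with shallow copies kept.

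In the immune classes the log2 ratios against day 3 stayed within 2-fold, except for Nlrc5 in T cell-like cells. None of the genes that met the limits was at least 2-fold higher on the log2 scale with 10 CPM added than at day 3 in monocyte/macrophage-like cells of days 7 and 14 (2.1% and 3.38% of all genes), dendritic-like cells (1.04% and 3.88%), T cell-like cells (1.41% and 3.66%), NK cell-like cells (2.44% and 3.5%) or neutrophil-like cells of day 7 (3.98%). All 10 met the limits except Nlrc5 in NK cell-like cells of day 14 and in neutrophil-like cells. Nlrc5 in dendritic-like cells of day 14 had a CPM ratio of 2.02 (1.19 to 3.28) but a log2 ratio of 0.82 with the added 10 CPM. Of the genes that met the limits, 9 of 10 lay above 0 in dendritic-like cells at day 7, with a median log2 ratio of 0.29 against -0.02 over all genes, and 7 of 10 in monocyte/macrophage-like cells, with 0.22 against -0.10. In T cell-like cells of day 7, 6 of 10 did, with a median of 0.01 against -0.07. At day 14, 9 of 10 lay above 0 in dendritic-like and 5 of 10 in monocyte/macrophage-like cells. Their medians were 0.225 and 0.004, against -0.028 and -0.125 over all genes. In T cell-like and NK cell-like cells of day 14, 3 of 10 and 2 of 9 did. Their medians were -0.065 and -0.101, against -0.014 and -0.031. The share of all genes above 0 was not counted, so these counts have no background beside them. Below the line was Nlrc5 in T cell-like cells. It went from 149.6 CPM on day 3 to 66.7 CPM on day 7, a ratio of 0.446 (0.326 to 0.617), and to 54.0 CPM at day 14, a ratio of 0.361 (0.221 to 0.578). At least 2-fold lower were 1.63% and 2.96% of all genes.

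Nlrc5 was then read within T cell clusters. In the cluster with Ccl5 and Cd8b1 among its leading genes, it was 185.3 CPM (134.6 to 248.7) at day 3, 54.7 CPM (41.6 to 70.8) at day 7 and 73.0 CPM (38.9 to 124.8) at day 14. In the cluster led by Icos and Cd3g, it was 87.8 CPM (43.8 to 157.1), 81.8 CPM (64.9 to 101.6) and 51.4 CPM (26.6 to 89.8), with intervals that overlapped. The first cluster held 39 of the 64 T cell-like cells of day 3 and 152 of the 366 of day 7. H2-K1, whose promoter Nlrc5 acts on, stayed at 2610.8, 2621.2 and 2532.2 CPM over the same days. The 18 T cell-like cells of day 0, under the cell minimum, had 958.6 CPM of H2-K1 (804.8 to 1133.2) and 433.8 CPM of Psmb8 (332.6 to 556.1).

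**Figure D4:**
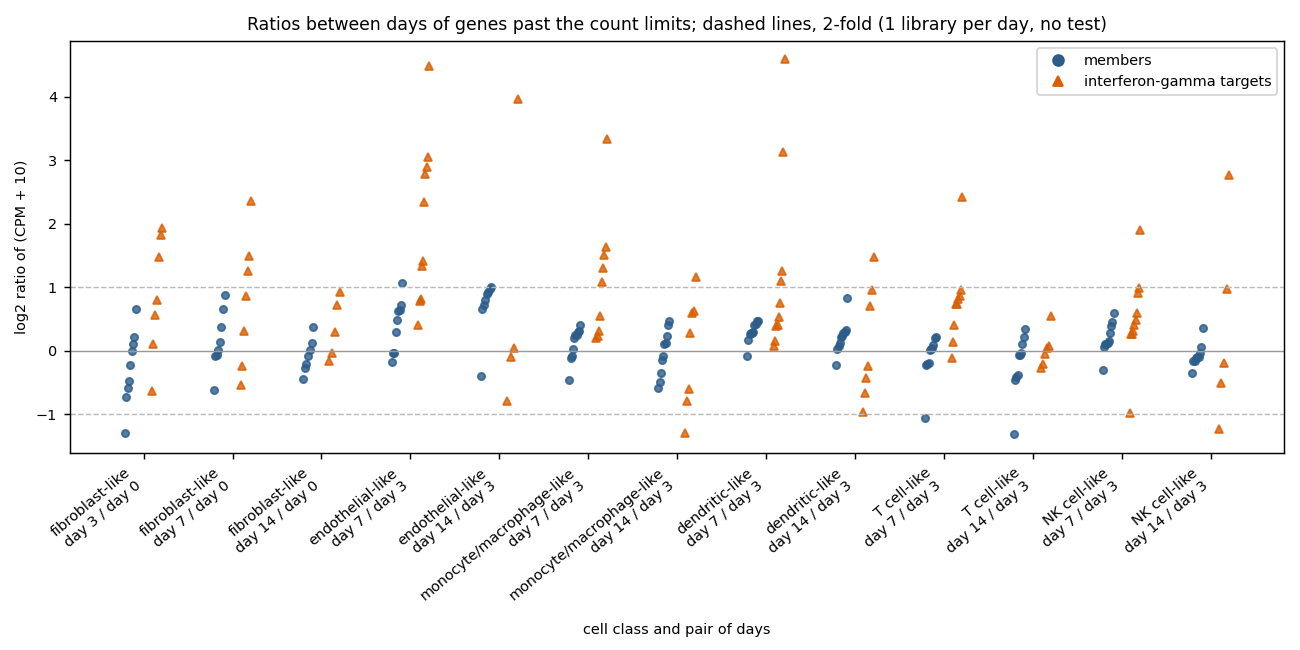
Log2 ratio of CPM plus 10 between days (vertical axis) for the presentation genes (circles) and interferon-gamma targets (triangles) that met the count limits, by cell class and pair of days. Dashed lines mark 2-fold, and there is no test since each day was 1 library. In endothelial-like cells of day 7, 7 of 10 targets and 1 of 9 presentation genes lie above the upper line. As a mean over cells, without the deepest cells or with both copies of shared barcodes removed, 5 or 6 presentation genes did. With at least 500 genes and at most 10% mitochondrial UMIs per cell, none did.

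The rest of the pathway was described from 8 lists with 65 other genes, by counts over the same edgeR fits. Other than in the paragraph on the widest moves, the genes named from them were chosen after their values were seen. Of 10 other class I and class I-like chains, 8 were higher in the immune classes, where 29.3% of all genes were, among them H2-Q7 (log2 5.71), H2-Q6 (5.58), H2-Q4 (3.05) and H2-T23 (2.73), which presents a peptide cut from other class I chains. Fcgrt (-2.14) and Mr1 (-2.30) were lower; these chains carry IgG and display vitamin B metabolites to T cells. The H2-Q genes share sequence as said above. In endothelial-like cells 4 of the 10 were higher, where 10.7% of all genes were: H2-Q6 (5.53), H2-Q7 (5.08), H2-Q4 (3.03) and H2-T23 (1.43), and Fcgrt was lower (-3.44).

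Loading and trimming genes split. Tapbpl (2.26), a tapasin relative that edits peptides, and Erap1 (0.81), which trims them, were higher in the immune classes. The general chaperones Calr (-0.97), Canx (-0.81) and Pdia3 (-1.13), which also fold many other secretory proteins, were lower. Of 12 other 20S core and assembly genes, 2 were higher and 1 lower in the immune classes, both below the shares of all genes (29.3% and 39%), and in endothelial-like cells their median log2 difference was 0.09. Of 4 activators, Psme1 (2.19) and Psme2 (1.20), which form the interferon-inducible PA28 cap, and Psme3 (0.38) were higher, and Psme4 (-0.88) was lower. Psme1 alone of these was higher in endothelial-like cells (1.30).

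Among 10 factors that act at class I promoters, 7 were higher in the immune classes, against 29.3% of all genes, with Irf2 (1.86) and Irf1 (1.51) as examples. In endothelial-like cells 2 of the 10 were higher, Irf2 (1.18) among them, against 10.7% of all genes. Of 7 interferon ligands and receptors tested, 6 were higher in the immune classes, among them Ifng (5.32), which encodes interferon-gamma, and the receptor chain Ifngr1 (2.79), while the other receptor chain, Ifngr2, was lower (-1.43). Of 13 interferon-gamma targets, 9 were higher and 1 lower in the immune classes. In endothelial-like cells 10 were higher, against 10.7% of all genes, led by the GTPases Gbp4 (8.34) and Gbp5 (4.33), the adhesion molecule Icam1 (4.04) and the chemokine Cxcl10 (3.04), and Socs1, an inhibitor of the pathway, was lower (-2.11).

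Between lymphoid and myeloid classes, 5 of the other class I chains were higher and 2 lower, 9 of the 12 other 20S genes were lower, and targets of interferon-gamma numbered 3 higher and 4 lower. Of all genes 17.7% were higher and 25.2% lower, so that the counts of the targets lay near the background.

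Ifng transcripts were found in T cell-like and NK cell-like cells. T cell-like cells had 14.0 CPM (2 UMIs), 368.8, 182.8 and 139.0 CPM of Ifng on days 0, 3, 7 and 14. NK cell-like cells had 405.5, 247.1 and 435.7 CPM on days 3, 7 and 14. Other named classes had at most 5.96 CPM. In monocyte/macrophage-like cells the T cell-attracting chemokine Cxcl9 had 0.214, 93.4 and 3.54 CPM on days 3, 7 and 14, and in dendritic-like cells 1.44, 264.6 and 14.9 CPM. In monocyte/macrophage-like cells of day 7, 5 of 9 targets were at least 2-fold higher, with a median of 1.08, where 2.1% of all genes were. At day 14, 1 of 7 was higher and 1 lower, with a median of 0.28, against 3.38% and 3.53% of all genes. The cells of this class fell in different clusters by day. The Plac8-led cluster held 68 of 510 cells at day 3, 368 of 911 at day 7 and 15 of 181 at day 14. The part of the clusters in these counts was not tested.

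In endothelial-like cells of day 7, 7 of 10 targets were at least 2-fold higher than at day 3, with a median of 1.88, where 9.93% of all genes were, in the same sums with more dendritic and fibroblast markers. Cxcl10 went from 14.9 to 549.0 CPM and Icam1 from 79.6 to 609.1 CPM. At day 14, 1 of 4 targets was at least 2-fold higher than at day 3, with a median of -0.03, where 11.3% of all genes were. In fibroblast-like cells 3 of 7 targets were at least 2-fold higher than at day 0 at day 3 and at day 7, and none of 5 at day 14, where 4.5%, 4.61% and 3.1% of all genes were. The limit on mean CPM bears on these counts. Cxcl10 was at 0 (an allowance of up to 1.37 CPM), 36.2, 41.1 and 27.9 CPM on days 0, 3, 7 and 14, with log2 ratios of 2.21, 2.35 and 1.92, and met the limit at day 7 only. Monocyte/macrophage markers in these sums stood at 117.8, 433.4, 315.1 and 312.7 CPM and dendritic markers at 22.8, 95.5, 107.5 and 77.6 CPM on days 0, 3, 7 and 14, and their part in the target levels was not tested. The same cells had 60.7, 72.3, 57.3 and 48.6 CPM of Psmb8.

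The genes with the widest moves in each list were also taken for fibroblast-like cells at day 7 and monocyte/macrophage-like cells at day 14. In fibroblast-like cells Fcgrt had a log2 ratio of -0.84, Calr of 0.41, Psmb7 of 0.54, Psmb3 of -0.31 and Psme3 of 0.61. The type I interferon receptor chain Ifnar2 went from 244.2 to 84.4 CPM, a log2 ratio of -1.43. In monocyte/macrophage-like cells H2-Q6 went from 2.35 to 65.9 CPM between days 3 and 14 (log2 ratio 2.62), and the related H2-Q4 and H2-Q7 from 46.6 to 124.0 and from 31.6 to 104.8 CPM. Irf1, a factor that binds interferon response elements, went from 48.9 to 147.3 CPM (1.42), and the GTPase Irgm1 had a log2 ratio of -1.30. Calr (-0.70), Psmb7 (-0.24), Psma6 (-0.71), Psme3 (-0.69) and Ifnar2 (0.66) stayed within 2-fold. As said above, monocyte/macrophage-like cells fell in different clusters by day, and the part of this in their ratios was not tested.

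Levels also differed among clusters of 1 class. In dendritic-like cells the cluster led by Ccr7 and Ccl22, genes of dendritic cells that move to lymph nodes, had 1310.9 CPM of Psmb8 (interval 1237.2 to 1387.7), against 586.9 CPM (568.5 to 605.7) in the cluster led by Cd209a. The same 89 cells had 2765.8 CPM of H2-K1 against 1113.0, 3535.9 CPM of B2m against 1614.5, 261.5 CPM of Tap1 against 133.6 and 123.0 CPM of Nlrc5 against 29.6. Psmb10, at 147.4 and 146.8 CPM, was alike in both. The Ccr7-led cluster was higher in each of the libraries of days 3 and 7. Its Psmb8 was 1335.3 and 1315.4 CPM there, against 493.8 and 645.8 CPM, and its H2-K1 2512.0 and 2967.1 CPM, against 955.3 and 1198.5 CPM.

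In monocyte/macrophage-like cells, a cluster of 84 cells led by the interferon-induced genes Rsad2 and Ifit1 had 637.7 CPM of Psmb8, 286.1 CPM of Tap1, 346.1 CPM of Tapbp and 99.4 CPM of Nlrc5. The cluster led by Ms4a7 and C1qa had 270.3, 77.6, 164.2 and 20.7 CPM of these genes. For Nlrc5 the Rsad2-led cluster had 109.8 CPM (80.1 to 146.9) at day 3 and 93.4 CPM (68.4 to 124.6) at day 7, above the other clusters of the class with at least 20 cells on both days. The heavy chain followed another order, with 1479.5 CPM of H2-K1 in the Rsad2-led cluster, 1566.3 CPM in the cluster led by Ms4a7 and C1qa and 1142.9 CPM in the Plac8-led cluster. These are sums over libraries, and H2-K1 of the class was 1017.6 CPM at day 3 and 1344.9 CPM at day 7. The Plac8-led cluster held 68, 368 and 15 cells of days 3, 7 and 14. The part of the days in this order was not tested. These clusters were formed on the same cells, so the values are a description and no test was made between them. A small group of 10 plasmacytoid dendritic-like cells of day 7 had 2542.2 CPM of H2-K1 (2253.1 to 2858.1), 662.8 CPM of Psmb8 and an immunoproteasome share of 71.4%. The 21 B cell-like cells of day 14 had 880.7 CPM of H2-K1 (687.8 to 1110.9) and 235.7 CPM of Psmb8 (141.9 to 368.0).

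**Figure D5:**
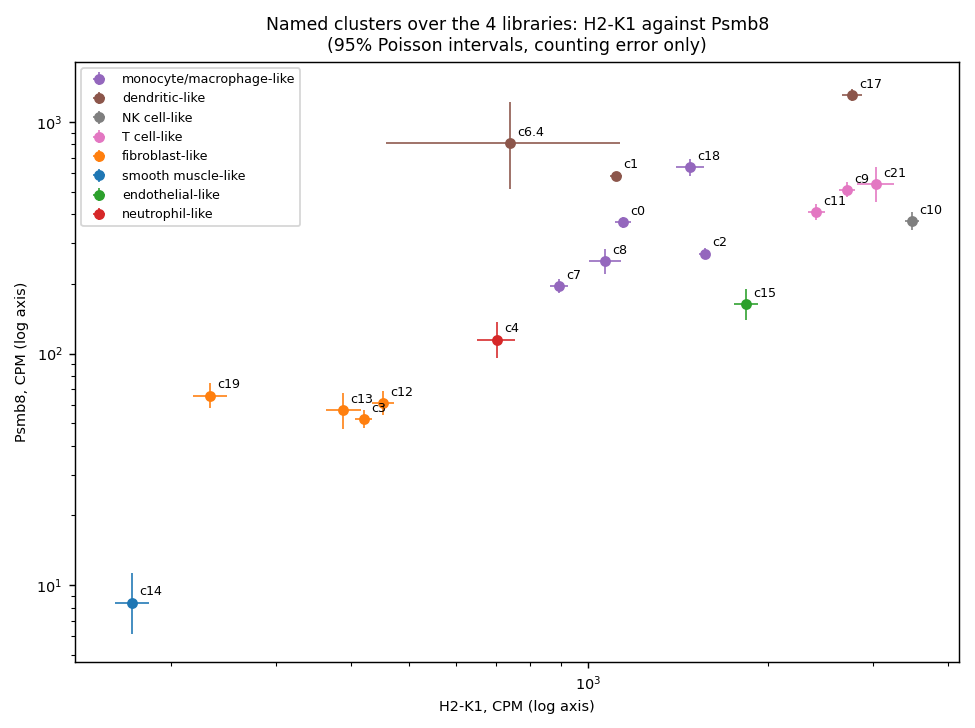
H2-K1 against Psmb8 in each named cluster, summed over the 4 libraries, as CPM on log axes with 95% Poisson intervals; colours give the class and labels the cluster number. The Ccr7-led dendritic-like cluster (c17) stands at the upper right with 2765.8 and 1310.9 CPM, and the smooth muscle-like cluster at the lower left.

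Finally, the profile of each gene over 24 sums of class and library was compared by Pearson's correlation of log2 levels. The sums share libraries, so the values are descriptions. Among the 10 genes, Tap1 and Psmb9 were most alike (r = 0.972), followed by Psmb8 and Psmb9 (0.971). Tapbp was least like the others, with r of 0.553 to 0.702. Over 6706 genes, with the 10 genes themselves left out of the rankings that follow, the profile of H2-K1 was most like those of Ifngr1 (0.949), H2-Q7 (0.944), Il2rg (0.925), H2-Q4 (0.924) and Prkch (0.914). Psmb8 was most like Psme1 (0.924), Sh3bgrl3 (0.914), Dnajc7 (0.909), Arhgdib (0.908) and Sp110 (0.908). Nlrc5 was most like Znrf2 (0.902), Prex1 (0.892), Runx3 (0.890), Psme1 (0.888) and Dnajc15 (0.888).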

How the data were processed

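Single-cell 3′ RNA-sequencing counts of 4 libraries (days 0, 3, 7 and 14) were used as deposited. The deposited values are unnormalized UMI counts, with genes in rows and the barcodes that the authors' software called as cells in columns; reads were not realigned. Per the file headers the counts came from Cell Ranger 3.0.2, whereas the methods name another version. The build named there is a human one, so no coordinates were taken from the files. The counting step can assign reads shared by near-identical genes to neither gene, which touches the heavy chains. No column of another sample was present.

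Barcodes with under 200 genes or over 20% mitochondrial UMIs (453 of 6161) were removed. Scrublet marked 17 doublets by its own threshold, 12 of them at day 0 and only 1 or 2 in each library after injury. In every library the highest scores were therefore removed instead, at 0.8% per 1000 barcodes (106 in all, 1 at day 0). Where 2 libraries shared a barcode and 1 copy had at least 5 times fewer UMIs, that copy was removed. The 2000 most variable genes without the 75 pathway genes were clustered on 30 components with 15 neighbours and Leiden at resolution 1 (scanpy 1.11.5, leidenalg 0.10.2, Python 3.11.15). A cluster needed at least 3 detected markers of a class that was also borne out by its leading genes. Cluster names were rebuilt here and may differ from the authors'.

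Class sums per library were tested with edgeR 4.0.16 (R 4.3.3; TMM, filter on low counts, quasi-likelihood, Benjamini-Hochberg), and with DESeq2 1.42.0 as an alternative. The scripts were tested on simulated counts. Between days there was 1 library each, so exact Poisson, binomial and Clopper-Pearson 95% intervals (scipy 1.17.1) were given with no test; where no UMI was found, the limit is 3 UMIs. The class totals ran from 48489 to 8848484 UMIs for classes with at least 15 cells in a library after injury. The named genes were the 10 members, the constitutive partners, the most changed gene of each list in fibroblast-like cells at day 7 and monocyte/macrophage-like cells at day 14, and the 5 genes most alike in profile; 1 gene and 1 cluster that these rules cover are not reported here. The members and lists were chosen with earlier results of these data known. Alternatives were DESeq2, no filter on low counts, day 0 added, other cell filters, doublets kept, each library clustered on its own, the 10% of cells with the most UMIs left out, other scalings, and each library left out in turn. Added after seeing the data were both treatments of shared barcodes, the endothelial-like minimum of 15 cells and smooth muscle-like ratios against day 3.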

Additional observations from a re-analysis of the deposited data

How the results depend on the processing

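The immune and endothelial-like contrasts kept 10 of 10 genes in the higher direction, though not every call. In the endothelial-like contrast Tapbp lost its call with no filter on low counts (adjusted p = 1.32e-01 by edgeR), without the 10% of cells with the most UMIs (3.79e-01) and without any 1 library (5.87e-02 to 3.06e-01). Nlrc5 lost it with doublets kept (7.20e-02), with separate clustering (7.24e-02), without the deepest cells (2.87e-01), without day 7 (6.02e-01) and with both copies of shared barcodes removed (3.98e-01), and Tap2 without day 7 (7.92e-02). Of counts and shares, 220 of 254 values kept their place over all alternatives run. Of 350 values of single genes in the class contrasts, 9 turned sign, all in the lymphoid contrast. Psmb10 there was -0.004 and became 0.058 with DESeq2, 0.016 with the stricter cell filter, 0.053 with each library clustered on its own, -0.057 to 0.079 with a library left out (0.013 without day 7), and 0.016 with shallow copies kept or both copies removed. H2-D1 (0.06) became -0.001 with no filter on low counts and -0.041 with day 0 added. The lymphoid contrast had 2 genes higher with DESeq2, with separate clustering and without the deepest 10% of cells, while the genes lower went from 1 to 2 with doublets kept, without day 7 or with both copies removed, to 3 with no filter, with day 0 added or with the stricter filter, and to 4 without the deepest cells. The median of all genes in the immune contrast was -0.152 with DESeq2 against -0.103.

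Of the day comparisons, members at least 2-fold higher numbered 1 in fibroblast-like cells of day 7 and in smooth muscle-like cells of day 3, both without the deepest cells or with both copies of shared barcodes removed. In smooth muscle-like cells of day 7 they numbered 3 with median-of-ratios scaling and 2 with doublets kept or the stricter filter. In endothelial-like cells of day 7 they numbered 6 as a mean over cells, 0 with the stricter filter, 6 without the deepest cells and 5 with both copies removed. In endothelial-like cells of day 14 they numbered 4 as a mean over cells, 0 with median-of-ratios scaling, with separate clustering or with shallow copies kept, 2 with the stricter filter or without the deepest cells, and 3 with both copies removed. Dendritic-like cells of day 14 had 1 with the stricter filter, and NK cell-like cells of day 14 had 1 as a mean over cells. For these the cause was not tested.

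The immunoproteasome share of fibroblast-like cells moved to 22.1% (separate clustering), 28.4% (without the deepest cells) and 33.1% (both copies removed) at day 3, and to 22.7% (doublets kept), 22.6% (without the deepest cells) and 24.5% (both copies removed) at day 7. In monocyte/macrophage-like cells of day 7 it was 57.3% with separate clustering and 62.9% without the deepest cells. In T cell-like cells it was 64.9% at day 0 without the deepest cells or with both copies removed, and 72.6% at day 7 without the deepest cells.

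No paired analysis was possible because each time point was 1 library, as far as days are compared; the class contrasts had the library as a block. The endothelial-like contrast could not be fitted with the stricter cell filter, which left too few cells. Depth limits Nlrc5 and Psmb9 in smooth muscle-like cells and all genes in endothelial-like cells of day 14, where 3 UMIs amount to 61.9 CPM. With 1 library per day, the day of a library, its animals and its digestion cannot be told apart, and p-values of class contrasts reflect 3 libraries.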

Other observations

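The T cell-like cluster led by Trdc and Cd163l1, genes of gamma-delta T cells, was also high in class I, with 3028.7 CPM of H2-K1 (interval 2819.3 to 3249.5) and 538.6 CPM of Psmb8 (452.5 to 636.3) over 46 cells. Its Psmb9 was 93.7 CPM (60.0 to 139.4), and its Psmb10 187.3 CPM (138.1 to 248.4).

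Ciita, the class II counterpart of Nlrc5, was at 365.4, 383.8 and 226.6 CPM in dendritic-like cells of days 3, 7 and 14 and at 67.9, 182.6 and 107.7 CPM in monocyte/macrophage-like cells. In T cell-like cells no Ciita UMI was found at day 3 (a limit of 8.02 CPM), and 2.65 and 17.4 CPM were found at days 7 and 14. These are values of single libraries and were not tested.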
